A study of Homo sapiens with 6 samples.

Results

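The genes described here are the vascular endothelial growth factor (VEGF) ligands VEGFA, VEGFB, VEGFC and PGF, the tyrosine kinase receptors FLT1, KDR and FLT4, and the neuropilins NRP1 and NRP2. They were taken by name because VEGFA is the target of the drug, and each is represented by all probe sets that the array annotation gives to that gene alone. This gave 33 probe sets of 9 genes among 54675 probe sets in all, 41097 of which carry 1 gene symbol. RNA came from subcutaneous xenografts of U87-EV, cells of the established human glioblastoma line U87 (EV is not explained in the labels). They were grown with Matrigel in female BALB/c SCID mice, which lack functional T and B lymphocytes and were 6 to 8 weeks old at implantation. Control mice received saline, and treated mice received bevacizumab, a monoclonal antibody against human VEGF-A, by intraperitoneal injection, 10 mg/kg at intervals of 3 days. Dosing began at a tumour volume of 150 to 200 mm3 and went on to a diameter of roughly 15 to 30 mm. From the 5 mice that entered each group, 3 arrays are given, and no label ties an array to a mouse of its own. What the p-values weigh is therefore array-to-array spread, and part of it may be technical.

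VEGF ligands are secreted dimers. VEGFA signals mainly through KDR (VEGF receptor 2), while FLT1 (VEGF receptor 1) binds VEGFA, VEGFB and PGF and can act as a decoy, and FLT4 (VEGF receptor 3) binds VEGFC and serves lymphatic vessels. Neuropilins have no kinase of their own; they bind VEGF forms and class 3 semaphorins and join receptor complexes. VEGFA is a classical target of the hypoxia-inducible transcription factors, and in glioblastoma the tumour cells are a main source of the ligand while the kinase receptors lie mostly on vessels. In these tumours the vessels come from the mouse and the probes were designed for human RNA, and RNA of the host was not separated from that of the tumour.

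Values are deposited GCRMA expression values, read as log2, so a difference of 1 is a 2-fold change. Levels of different probe sets are not comparable with each other, and only differences between arrays are read. For the gene fit the brightest probe set stood for each gene, and 10233 genes with a mean of at least 4 were tested with limma, an adjusted p under 0.05 (Benjamini-Hochberg) counting as past the threshold. A second fit took all 18475 probe sets that have 1 gene symbol and a mean of at least 4. Probe sets of 1 gene are assigned to that same gene and are not independent of each other. Which of its transcripts each probe set matches was not examined. The array medians lay between 2.49 and 2.51, and 33.4% to 34.3% of probe sets per array were at 2.23, the bottom of the scale. The log2 difference between 3' and 5' control probe sets of ACTB, a sign of RNA quality, was 1.14 to 1.66 in controls and 1.64 to 1.94 after bevacizumab, so it moved with the groups although they overlapped.

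VEGFA, VEGFC and NRP2 rose after bevacizumab, no gene of the family fell in the gene fit, and the kinase receptors had little or no measurable signal. Of the 9 genes 7 were bright enough to test, and 3 of these 7 rose, where 9.09% of all tested genes rose. The limma count of genes lower was 0 (9.97% of all tested genes), both at the adjusted threshold and at an unadjusted p under 0.05. At the latter 6 of the 7 genes were higher, where 17.3% of all tested genes were higher and 18.5% lower. The median change of the 7 genes was 0.87, against -0.01 over all tested genes. Among probe sets, 20 of 33 were tested; 9 rose and 1, of PGF, fell, where 7.43% and 7.96% of all tested probe sets did (39.0% had groups that did not overlap). The 13 others were under 4 on every array. When the ACTB difference was added as a covariate, no gene of the family passed the threshold and 1 probe set did, one of VEGFA; 24 genes passed in all under that fit.

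**Figure D1:**
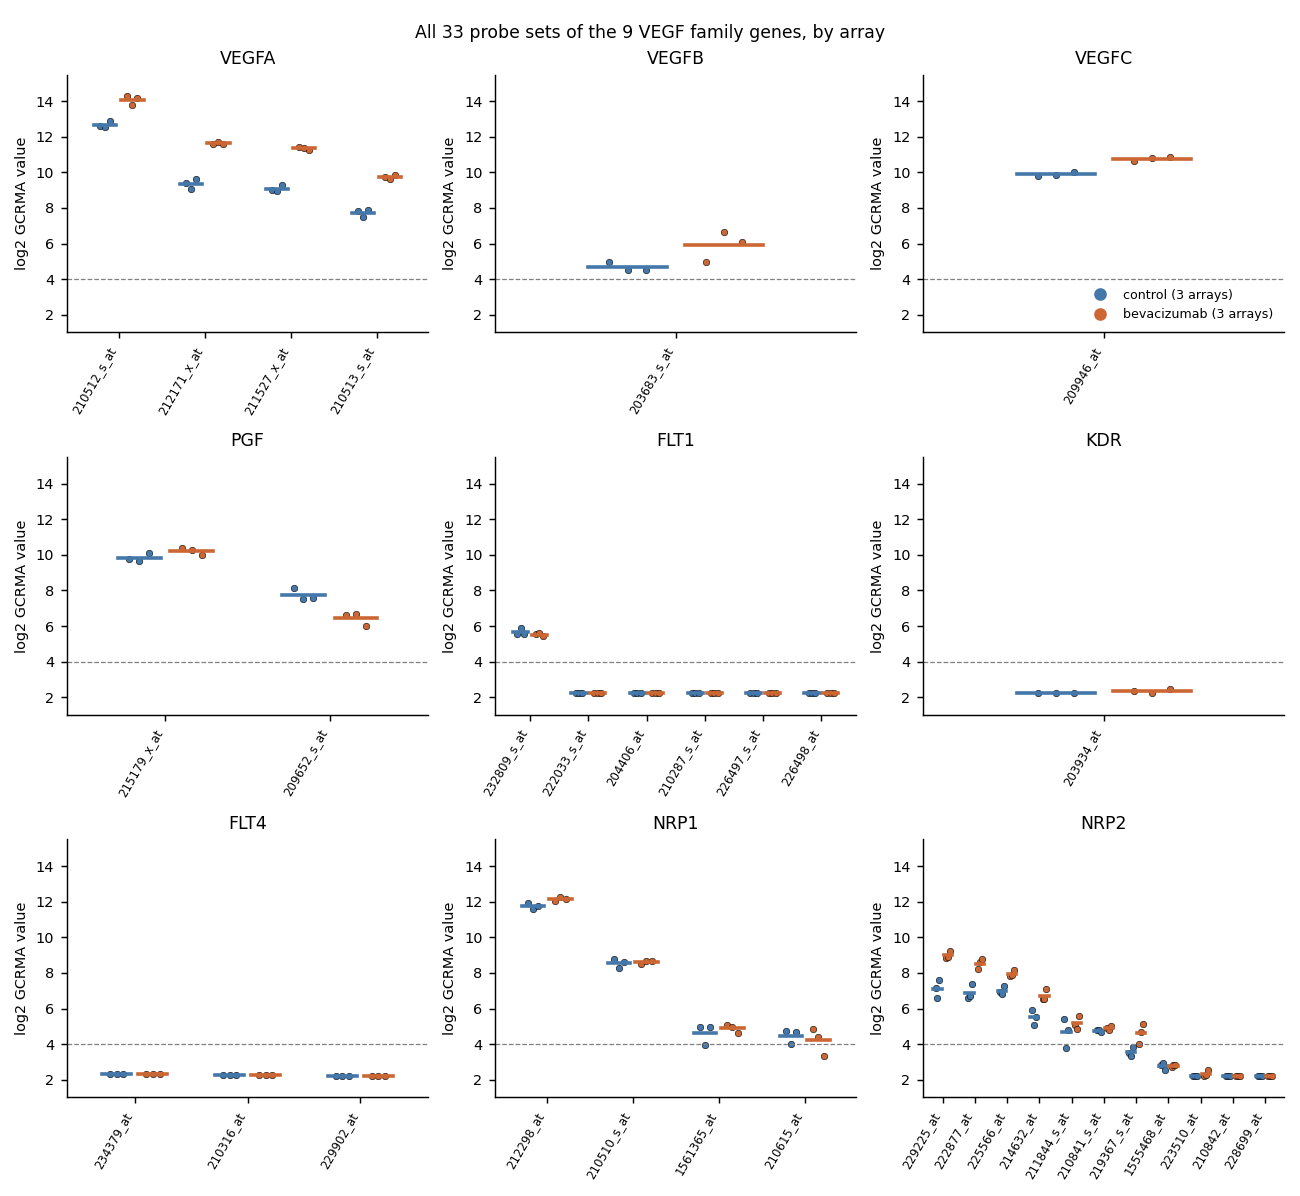
Each point is 1 array (3 control, 3 bevacizumab), each short bar is the mean of a group, the vertical axis is the log2 GCRMA value and the dashed line marks the value of 4 used as the filter. All 4 probe sets of VEGFA separate the groups, the 2 of PGF go opposite ways, and FLT1 (5 of 6 probe sets), KDR and FLT4 lie near the bottom of the scale.

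Among the ligands, VEGFA, the antigen of the antibody, rose on all 4 of its probe sets. On the brightest, 210512_s_at, the controls read 12.63, 12.54 and 12.89 and the bevacizumab arrays 14.27, 13.78 and 14.20. Every treated array was above every control, as was the case for 41.0% of all tested genes in one direction or the other. The log2 change was 1.40 (SE 0.17, 95% interval 0.99 to 1.81, limma adjusted p = 0.00609; n = 3 each), or 2.64-fold, and 263 of the 10233 tested genes (2.57%) changed upward by more. After the ACTB difference was added as a covariate it was 1.25 (adjusted p = 0.0865; 0.00107 to 0.0865 over the alternatives tried), and with the gene's probe sets averaged it was 1.99. In bulk tumour RNA more cells that express a gene and more RNA per cell cannot be told apart.

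The other VEGFA probe sets gave larger changes than the brightest. Probe set 212171_x_at went from 9.38, 9.06 and 9.63 in controls to 11.59, 11.72 and 11.57 after bevacizumab, a change of 2.27. For 211527_x_at the controls were 8.99, 8.95 and 9.29, the treated arrays 11.43, 11.38 and 11.28, and the change 2.29 (SE 0.12, adjusted p = 0.00178 in the fit over probe sets), or 4.88-fold. It is the family's only probe set that passed under each of the 14 alternatives run on it, with adjusted p-values from 0.000477 to 0.0475. Probe set 210513_s_at read 7.82, 7.51 and 7.88 in controls and 9.73, 9.62 and 9.86 after bevacizumab, a change of 2.00. On all 3 every treated array lay above every control (39.0% of all tested probe sets had groups that did not overlap), and the treated arrays differed little among themselves. The change on 210512_s_at minus that on the others was -0.87, -0.89 and -0.60 in the same order, and the groups did not overlap in these per-array differences (exact permutation p = 0.1 for each, two-sided, the smallest that 3 against 3 allows; 0.13 adjusted over 13 pairs of probe sets of the family). The treated values of 210512_s_at reached 14.27 and the highest value of the table is 15.99; whether this bears on the smaller change was not tested.

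VEGFC, the main ligand of FLT4, rose on its only probe set. Its controls were 9.78, 9.88 and 10.02 and its treated arrays 10.64, 10.79 and 10.85, so the groups lay apart and each was tight. The change was 0.87 (SE 0.11, 95% interval 0.61 to 1.13, limma adjusted p = 0.00639), or 1.83-fold. It held in every fit that left out 1 array (0.81 to 0.93, adjusted p 0.0107 to 0.0371) and was 0.79 with the ACTB covariate (adjusted p = 0.0858; 0.00287 to 0.0858 over its alternatives). The call on VEGFA also held in all 6 of those fits, with changes of 1.31 to 1.55 and adjusted p from 0.0135 to 0.0391.

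VEGFB, a ligand of FLT1 and NRP1, did not pass the threshold. Its controls were 4.98, 4.51 and 4.49, and its treated arrays 4.98, 6.64 and 6.08. Bevacizumab 1 matched control 1 while the other treated arrays were above every control. The difference was 1.24 with an SE of 0.42 (95% interval 0.22 to 2.26, limma adjusted p = 0.0897). Without bevacizumab 1 it was 1.70 and passed (adjusted p = 0.0151), and over its alternatives the adjusted p ran from 0.0151 to 0.321.

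PGF, placental growth factor, which binds FLT1, gave opposite results on its 2 probe sets. On the brighter, 215179_x_at, controls read 9.75, 9.66 and 10.08 and treated arrays 10.36, 10.25 and 10.01, so the groups overlapped and the difference of 0.37 did not pass (SE 0.15, limma adjusted p = 0.137). On 209652_s_at controls read 8.14, 7.51 and 7.57 and treated arrays 6.63, 6.70 and 6.03, all lower. That probe set fell by 1.29 (95% interval -1.90 to -0.67, limma adjusted p = 0.0256 over probe sets). The call was lost without the filter on dim probe sets (0.140), with the ACTB covariate (-1.24, 0.188) and without control 1 (-1.09, adjusted p = 0.0771), control 2 (-1.40, 0.0620), control 3 (-1.37, 0.0655) or bevacizumab 2 (-1.41, 0.0582), and the adjusted p ran from 0.00950 to 0.188 over its alternatives. The changes of the 2 probe sets differed by 1.66, with no overlap between groups (exact permutation p = 0.1, the smallest possible; 0.13 adjusted). Averaging them turned the sign for the gene, to -0.46 (adjusted p = 0.11; 0.0846 to 0.978 over the alternatives for the gene). The letter x in a probe set name marks probes that can also match other transcripts, which holds too for 212171_x_at and 211527_x_at of VEGFA. No direction is given here for PGF as a gene.

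**Figure D2:**
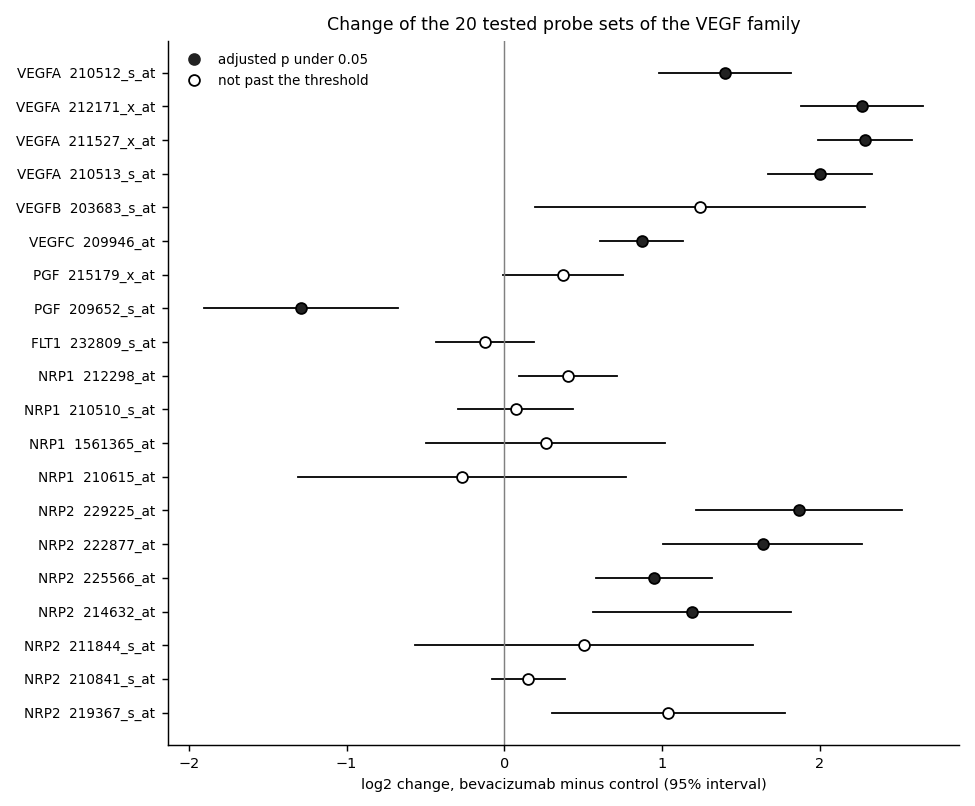
Each row is 1 of the 20 tested probe sets, the horizontal axis is the log2 change (bevacizumab minus control), the point is the limma estimate and the line its 95% interval; filled points are past the threshold. VEGFA lies between 1.40 and 2.29, 4 of 7 tested NRP2 probe sets are filled at 0.95 to 1.87, and 209652_s_at of PGF is the only filled point below 0, while 219367_s_at is drawn at its measured 1.04.

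Among the receptors, KDR and FLT4 had no value above the filter and FLT1 had values above it on 1 probe set only. KDR, the main signalling receptor for VEGFA on endothelium, read 2.23 on all controls and 2.36, 2.23 and 2.46 after bevacizumab, on its only probe set. FLT4 lay between 2.23 and 2.30 on all arrays and its 3 probe sets. Neither was tested, and values this low have no order. Of the 6 FLT1 probe sets, 5 were at most 2.24 on every array. The sixth, 232809_s_at, read 5.54, 5.87 and 5.54 in controls and 5.54, 5.62 and 5.41 after bevacizumab, with overlapping groups. Its difference was -0.12 (SE 0.12, 95% interval -0.43 to 0.18, limma adjusted p = 0.510). Control 1, control 3 and bevacizumab 1 held exactly the same value, 5.53645. Whether this probe set measured FLT1 RNA above its own background was not tested, so the interval sets no limit on a change of FLT1. Human endothelial markers were as dim. Of 15 endothelial genes 13 were under 4 on all arrays, and ESAM, ERG, EMCN, CD34, MMRN2 and SOX18 were at or within 0.1 of the lowest value of the table. The summed linear signal of that list was 195 to 208 in controls and 199 to 232 after bevacizumab. PECAM1 (0.18) and TEK (-0.03) were the endothelial genes bright enough to test, and neither passed.

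Among the neuropilins, NRP2 rose and NRP1 showed a smaller difference that did not pass. NRP2 binds VEGFC and VEGFA forms as well as semaphorin 3F. Its brightest probe set, 229225_at, read 7.15, 6.60 and 7.59 in controls and 8.85, 8.88 and 9.23 after bevacizumab, with every treated array above every control. The log2 change was 1.87 (SE 0.26, 95% interval 1.23 to 2.50, limma adjusted p = 0.00893), or 3.65-fold, and 147 tested genes (1.44%) rose by more. With the tested probe sets of each gene averaged, NRP2 rose by 1.049 (adjusted p = 0.0192) and VEGFA by 1.99, so the order of these genes turned. By the brightest probe set the change was 1.61 to 2.11 in the fits without 1 array (adjusted p 0.0160 to 0.0459). The call was lost without the filter on dim genes (adjusted p = 0.0610) and with the ACTB covariate (1.67, adjusted p = 0.108), within a range of 0.00296 to 0.108 over its alternatives.

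NRP2 has 11 probe sets, and they did not move alike. Of these, 7 were tested and 4 rose. All 7 had a higher mean after bevacizumab, but for 219367_s_at, under 4 on every control, the filter fixed that direction. Probe set 222877_at went from 6.58, 6.69 and 7.37 to 8.19, 8.59 and 8.78, a change of 1.64 (adjusted p = 0.0146 over probe sets). Probe set 225566_at went from 6.94, 6.82 and 7.24 to 7.82, 7.89 and 8.15, a change of 0.95 (adjusted p = 0.0148). Probe set 214632_at went from 5.92, 5.10 and 5.52 to 6.52, 6.52 and 7.07, a change of 1.19 (adjusted p = 0.0326). In these 4 no control reached a treated array, and 39.0% of all tested probe sets had groups that did not overlap. The call on 214632_at was lost in each of the 6 fits without 1 array (adjusted p 0.0545 to 0.0933). That on 222877_at was lost without control 1 (0.0635), control 2 (0.0589) or bevacizumab 2 (0.0563), that on 225566_at without control 1 (0.0684) or control 2 (0.0550), and that on 229225_at, in the fit over probe sets, without control 1 (0.0567).

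The other NRP2 probe sets stayed below the threshold. Probe set 219367_s_at was under 4 on every control (3.52, 3.32 and 3.85) and read 4.01, 4.70 and 5.10 after bevacizumab, so it was at least 1.52-fold higher. It met the filter only through its treated arrays, so its direction and p-values are a description. Its measured difference was 1.04 (adjusted p = 0.0693), and 0.60 with values under 4 set to 4 (0.181). It passed without bevacizumab 1 (1.34, adjusted p = 0.0246) and with arrays centred on the median of tested genes (1.00, 0.0486), within 0.0246 to 0.291 over its alternatives. On 211844_s_at the groups overlapped, with 5.42, 3.78 and 4.78 in controls and 5.07, 4.83 and 5.59 after bevacizumab (difference 0.51, adjusted p = 0.46). Probe set 210841_s_at was nearly flat and its groups, although apart, were equal at their nearest to 2 decimals, with 4.79, 4.79 and 4.69 against 4.91, 4.79 and 5.01 (difference 0.15, 95% interval -0.08 to 0.38, adjusted p = 0.311). The change on 229225_at exceeded that on 210841_s_at by 1.72 and that on 211844_s_at by 1.36, with no overlap between groups in either difference (exact permutation p = 0.1 for each, the smallest possible; 0.13 adjusted over 13 pairs). The 4 remaining probe sets were at most 2.93 on every array.

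NRP1, the coreceptor that binds VEGFA and semaphorin 3A, read 11.93, 11.57 and 11.76 in controls and 12.03, 12.28 and 12.15 after bevacizumab on its brightest probe set, 212298_at. The groups did not overlap, but the difference of 0.40 (SE 0.12, 95% interval 0.10 to 0.70) had a limma adjusted p of 0.0723. It passed with a variance trend and robust estimation (adjusted p = 0.0456), with 0.0456 to 0.716 over its alternatives, the highest where the gene's probe sets were averaged (0.12). Its other probe sets overlapped between groups. On 210510_s_at controls read 8.76, 8.27 and 8.59 and treated arrays 8.49, 8.66 and 8.69 (difference 0.07). The dim probe sets 1561365_at and 210615_at differed by 0.26 and -0.27, with SEs of 0.31 and 0.42.

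The change of VEGFA was set against that of each other tested gene of the family, array by array, in 6 comparisons. The VEGFA change exceeded that of VEGFC by 0.53, of NRP1 by 1.00, of PGF (215179_x_at) by 1.03 and of FLT1 (232809_s_at) by 1.52. In each of these differences the treated arrays lay above all controls. Each had an exact permutation p of 0.1 (two-sided, the smallest 3 against 3 can give; 0.15 adjusted), so none can pass a threshold of 0.05 in this design. VEGFA alone already separated the groups, so a separated difference adds little where the other probe set changed little. Whether 232809_s_at measured FLT1 RNA was not tested, so its difference compares probe sets and not the genes. The VEGFA change minus that of NRP2 was -0.47, with overlapping groups (exact permutation p = 0.2, 0.24 adjusted). This sign depends on the probe sets: with those tested of each gene averaged it was 0.94 and the groups did not overlap (exact permutation p = 0.1, the smallest possible). The differences from VEGFC, NRP1, PGF and FLT1 kept their sign when averaged, at 1.12, 1.87, 2.45 and 2.11. Against VEGFB the difference was 0.16, with an SD of 1.08 over the treated arrays (exact permutation p = 0.8).

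**Figure D3:**
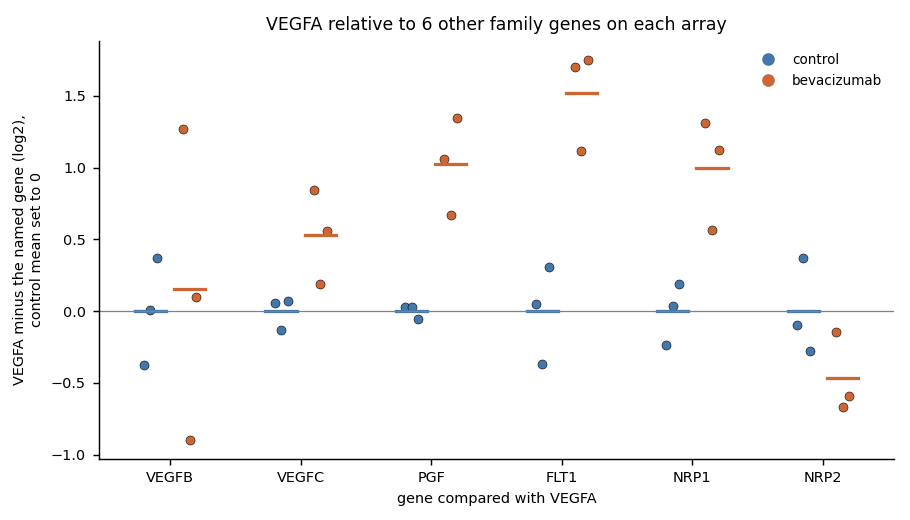
Each point is the log2 value of VEGFA minus that of the named gene on 1 array, both by their brightest probe set, with the control mean set to 0; bars are group means. The treated arrays lie above all controls for VEGFC, PGF, FLT1 and NRP1, and overlap them for VEGFB and NRP2.

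The promoters of VEGFC and NRP2, which rose together, are shown to let a reader see the sequence before their start sites, with any core letters of the hypoxia response element in capitals. They are the 250 bases before the annotated start in RefSeq, build GRCh38.p14, written 5′ to 3′ on the strand of the gene, at chr4:176792923-176793172 (minus strand) and chr2:205682251-205682500 (plus strand).
VEGFC: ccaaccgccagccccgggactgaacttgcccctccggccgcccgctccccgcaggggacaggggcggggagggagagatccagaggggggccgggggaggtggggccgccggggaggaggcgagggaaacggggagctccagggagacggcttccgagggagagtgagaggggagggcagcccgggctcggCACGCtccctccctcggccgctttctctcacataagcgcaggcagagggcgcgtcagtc
NRP2: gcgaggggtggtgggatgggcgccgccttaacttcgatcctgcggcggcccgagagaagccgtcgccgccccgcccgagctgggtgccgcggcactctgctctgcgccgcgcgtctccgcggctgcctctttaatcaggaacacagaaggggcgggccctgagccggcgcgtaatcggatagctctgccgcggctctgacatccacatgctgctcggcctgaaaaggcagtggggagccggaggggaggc
The letters searched were ACGTG and GCGTG on both strands. VEGFC holds 1 match, the second of these words read on the opposite strand, which begins 59 bases before the start, and NRP2 holds none in this window. Of 35116 promoters of the same length in that table, 43.2% hold at least 1 match, so its presence does not set VEGFC apart. The GC box letters GGGCGG, searched on both strands, occur 2 times in VEGFC and 3 times in NRP2, and at least once in 42.6% of promoters. A match is a description of letters and not a site of binding.

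Genes that act with the family were summarised in 6 lists (partner ligands and antagonists, coreceptors, ligand processing, receptor adaptors, downstream signalling, and control of VEGFA transcription and mRNA). Of 131 genes in all, 96 were tested; 18 rose and 4 fell, which is 22.9% past the threshold against 19.1% of all tested genes. The median change was 0.17, against -0.01 over all tested genes. The counts depended on single arrays: without control 1, 2 or 3 they were 7, 7 and 11 higher and 1, 4 and 2 lower. With the ACTB covariate both counts were 0, and without the filter on dim genes they were 7 and 1. Of the 22 genes, 7 passed in each of the 6 fits without 1 array, namely SDC4, MMP9, ADAMTS1, DAB2, MAP2K1, EPAS1 and STAT3. MMP9, 1 of the 4 that fell, met the filter only through its controls, so the filter fixed its direction.

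Among partner ligands and antagonists, 7 of 14 were tested, 2 rose and 2 fell (median 0.13). That is 57.1% of only 7 genes past the threshold, against 19.1% of all tested genes. THBS1, encoding thrombospondin 1, which restrains VEGF signalling, went from 10.98, 10.23 and 10.61 to 9.61, 9.13 and 9.30, and CCN2, whose product binds VEGFA, from 10.52, 10.24 and 9.89 to 9.07, 9.42 and 8.89. They fell by 1.26 (limma adjusted p = 0.0156) and 1.09 (0.0197). SEMA3C, a semaphorin that binds both neuropilins, rose by 0.59 (adjusted p = 0.011) and THBS2 by 0.55 (0.0307). Calls were lost for THBS1 without control 1, control 3 or bevacizumab 2 (at most 0.0577), for CCN2 without control 1, control 2 or bevacizumab 3 (at most 0.0744), for SEMA3C without control 2 (0.0519) and for THBS2 without control 1 or 2 or bevacizumab 1 or 2 (at most 0.11). The probe set of VEGFD, a ligand of FLT4, is shared with a readthrough transcript and was at most 2.27 on every array.

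Among coreceptors, 15 of 20 were tested, 3 rose and 0 fell by limma (1 lower at an unadjusted p under 0.05; median 0.17). SDC4, the heparan sulfate proteoglycan syndecan 4, rose from 10.58 ± 0.03 to 11.39 ± 0.12 (SD, n = 3 each; adjusted p = 0.00559). HSPG2, the basement membrane proteoglycan perlecan, rose by 1.65 (adjusted p = 0.0228), and PLXNA3, a plexin that signals for neuropilins, by 1.87 (0.0387), or by 1.39 with values under 4 set to 4 (0.0425), since 2 of its controls were under 4. HSPG2 lost its call without control 1, 2 or 3 or bevacizumab 3 (at most 0.0838) and PLXNA3 without control 1, control 2, bevacizumab 2 or bevacizumab 3 (at most 0.128). The glypican gene GPC1 (-0.74, adjusted p = 0.0641) did not pass, but did with arrays centred on the median (-0.78, 0.0330), with quantile normalization (-0.80, 0.0294), with a filter at 6 (0.0440) and without control 2 (-0.96, 0.0441), within 0.0294 to 0.295 over its alternatives.

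Among genes for processing and release of ligands, 11 of 15 were tested, 3 rose and 1 fell (median 0.52). Past the threshold were 36.4% of these 11, against 19.1% of all tested genes. MMP9, a gelatinase that can release matrix-bound VEGF, read 6.13, 6.19 and 5.85 in controls and was under 4 on every treated array. It was at least 4.16-fold lower (limma adjusted p = 0.00611), but it met the filter only through its controls. Its direction and p-value are therefore a description. ADAMTS1, a protease whose product also binds VEGFA, rose by 1.39 (adjusted p = 0.0126). PCSK5, one of the proprotein convertases that cleave VEGFC, rose from 4.98, 5.25 and 5.70 to 7.18, 6.56 and 7.69 (1.84, adjusted p = 0.0156) and lost its call without control 1 or 2 (at most 0.0654). MMP2 rose by 0.61 (adjusted p = 0.0321), a call lost without control 1, 2 or 3 or bevacizumab 2 or 3 (at most 0.107). MMP3, stromelysin 1, named here after its value was seen, was under 4 on every control and read 9.47, 4.68 and 7.86 after bevacizumab, at least 10.1-fold higher on average, but its treated arrays were far apart and it did not pass (adjusted p = 0.0781). Without bevacizumab 2 it passed (limma adjusted p = 0.0159, with 0.0159 to 0.345 over its alternatives) and the bound was 25.3-fold. Without bevacizumab 1 the bound was 4.82-fold. MMP3 met the filter only through its treated arrays, so its direction and p-values are a description too.

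Among receptor adaptors and trafficking genes, 24 of 28 were tested, 3 rose and 0 fell by limma (0 also at an unadjusted p under 0.05, median 0.16). At 12.5%, the share past the threshold was below the 19.1% of all tested genes. DAB2, an endocytic adaptor of VEGF receptors, rose by 1.19 (adjusted p = 0.00714), and 6 of its 6 tested probe sets had a higher mean after bevacizumab. CBLB, a ubiquitin ligase, rose by 0.79 (adjusted p = 0.0133) and the adaptor SHB by 0.77 (0.0477); CBLB lost its call without control 1 or 2 (at most 0.0607) and SHB without control 1, 2 or 3 or bevacizumab 1 or 3 (at most 0.151). The phosphatase gene DUSP5 (0.76, adjusted p = 0.0507) did not pass, but did with a filter at 6 (0.0344), with centring (0.0425), with quantile normalization (0.0407) and with a variance trend (0.0406), within 0.0344 to 0.2 over its alternatives.

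Among downstream signalling genes, 20 of 32 were tested, 3 rose and 0 fell by limma (3 lower at an unadjusted p under 0.05, median 0.15). Here 15.0% passed the threshold, a share below the 19.1% of all tested genes. MAP2K1, the kinase MEK1, rose by 0.77 (adjusted p = 0.00780), PRKCA, a protein kinase C, by 0.69 (0.0237) and RCAN1, a calcineurin inhibitor known as an early VEGF target in endothelium, by 1.50 (0.0443). The call on PRKCA was lost without control 1, 2 or 3 (at most 0.0871). That on RCAN1 was lost in all 6 fits without 1 array (0.0683 to 0.129) and with its probe sets averaged (0.0671). PRKD1, encoding protein kinase D1, differed by -0.72 (adjusted p = 0.0794) and passed with centring (-0.75, 0.0429) and quantile normalization (-0.77, 0.0290), within 0.0290 to 0.279 over its alternatives.

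Among genes that control VEGFA transcription or its mRNA, 19 of 22 were tested, 4 rose and 1 fell (median 0.13). Of these 19, 26.3% passed the threshold, against 19.1% of all tested genes. EPAS1, which encodes the hypoxia-inducible factor subunit HIF-2 alpha, read 10.22, 10.36 and 10.48 in controls and 11.93, 11.74 and 11.88 after bevacizumab, with no overlap. It rose by 1.49 (SE 0.11, limma adjusted p = 0.00196). STAT3 rose by 0.86 (adjusted p = 0.00609) and the stress transcription factor ATF4 by 0.59 (0.0148). ZFP36L1, which promotes decay of VEGFA mRNA and is named here after its value was seen, rose by 0.30 (0.0437). The RNA-binding protein gene HNRNPA2B1 fell by 0.58 (0.0222). ATF4 lost its call without control 1 or 3 (at most 0.0630). ZFP36L1 lost it in all 6 fits without 1 array and with centring, quantile normalization, a filter at 6 or the replicate block (0.0520 to 0.139). HNRNPA2B1 lost it without control 1, 2 or 3 or bevacizumab 2 (at most 0.0816) and with its probe sets averaged (0.116).

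**Figure D4:**
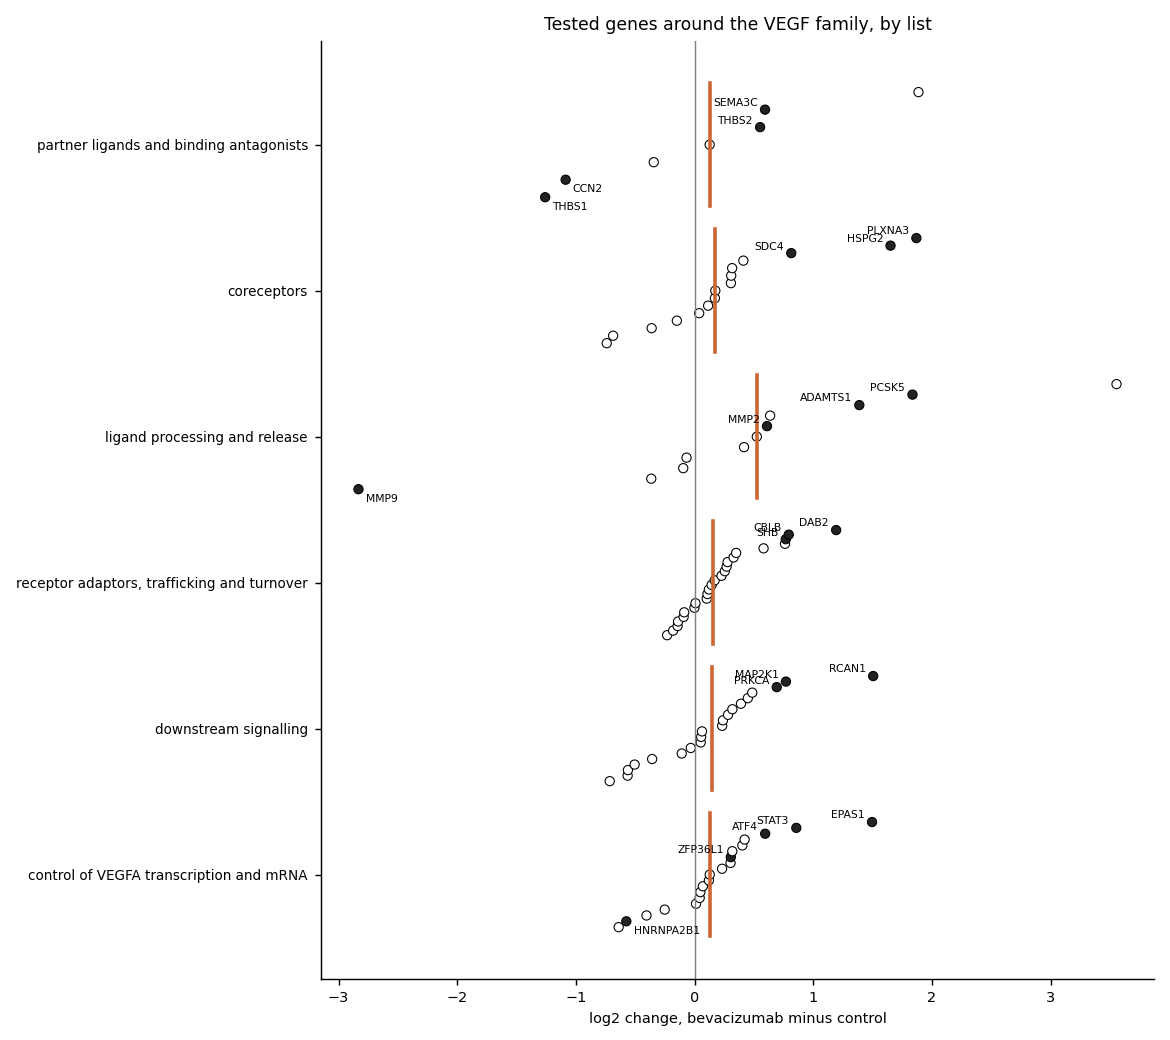
Each point is 1 tested gene of the 6 lists, placed by its measured log2 change (bevacizumab minus control) and by rank within its list; filled points are past the threshold and named, and the vertical bar is the list median. MMP9 is lowest at -2.83, a value that rests on treated arrays under 4, and MMP3 is highest at 3.55 as an open point.

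Markers of cells that can express neuropilins and ligands were read beside these results. Over all tested genes 9.97% fell and 9.09% rose. Of 9 mural cell genes 7 were tested and 3 fell (RGS5 fell by 2.85, ACTA2 fell by 1.79 and KCNJ8 was at least 3.17-fold lower). KCNJ8 was under 4 on every treated array and met the filter only through its controls, so the filter fixed its direction. The other tested mural genes did not pass, with differences of 0.30 for PDGFRB, 0.16 for CSPG4, -0.51 for NOTCH3 and -0.76 for ABCC9; all are named after their values were seen. The summed linear signal of the list was 8612 to 10885 in controls and 3566 to 4060 after bevacizumab, of which ACTA2 made 6097 to 8756 and 1742 to 2224. Of 7 fibroblast genes 1, DPT, rose, and the summed signal overlapped between groups (65787 to 70947 and 65059 to 77217). Of 10 macrophage genes with a probe set, 9 were under 4 on all arrays, CD14, ITGAM, CD163, TYROBP, C1QA and LYZ at the lowest value. Of 5 lymphatic endothelial genes, PROX1, RELN and MMRN1 were at the lowest value and FOXC2, the one tested, fell by 1.06 (adjusted p = 0.0348); the summed signal was 494 to 667 in controls and 214 to 386 after bevacizumab. Vessels in these tumours come from the mouse, the probes were designed for human RNA, and host and tumour RNA were not separated. A lower marker therefore cannot be read as a loss of that cell type. Which cells gave these signals, and their part in the results on the VEGF family, was not tested.

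For each gene of the family past the threshold, the 5 genes nearest in profile were found among 10232 tested genes, as the smallest root mean square difference over the 6 arrays after each profile was centred on its mean. Nearest to VEGFA were QPCT (0.09), a glutaminyl cyclase gene, NRG1 (0.10), an ERBB ligand gene, POFUT4 (0.11), STC1 (0.12), a secreted stanniocalcin, and NFKBIZ (0.12), a nuclear regulator of NF-kB. In QPCT the controls were 10.59, 10.47 and 10.72 and the treated arrays 12.01, 11.71 and 11.97. Bevacizumab 2 was the lowest treated array there, as on 210512_s_at and 210513_s_at of VEGFA. It was in the middle on 211527_x_at (11.38) and the highest on 212171_x_at (11.72). Nearest to VEGFC were GPC6 (0.04), a glypican, EGLN1 (0.06), the oxygen-sensing prolyl hydroxylase PHD2, ORAI3, MIF and GSDME (0.06 to 0.07). Nearest to NRP2 were ABCA1 (0.13), a cholesterol exporter, WFDC3, AGPAT4, ADAM8 and FAM117B (0.15 to 0.18). The median difference over all those genes was 0.75 from VEGFA, 0.48 from VEGFC and 1.00 from NRP2. Their profiles were chosen for likeness to genes that rose, so their own changes are a description.

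**Figure D5:**
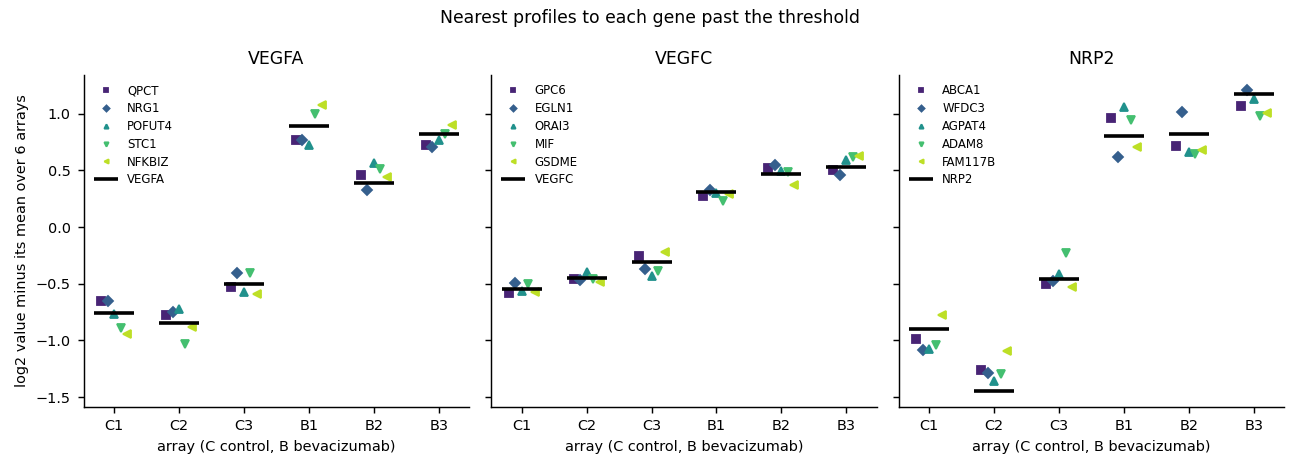
Points are the 5 nearest genes of each member and black bars the member itself, as log2 values minus their mean over the 6 arrays (C control, B bevacizumab; the arrays have no order within a group). The step from control to bevacizumab is 1.40 for VEGFA, 0.87 for VEGFC and 1.87 for NRP2, and the nearest genes step by 1.20 to 1.61, 0.86 to 0.93 and 1.60 to 1.90.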

How the data were processed

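Biotinylated target from total RNA of xenograft tumours, made with an oligo(dT) primer, was read on 6 Affymetrix human arrays. Per the submitters' processing notes, GCOS 1.1.1.052 and GCRMA were used; the GCRMA version is not given in the sources used here. The deposited values were read as log2 from their range, 2.23 to 15.99; no label states the scale. Probe sets were assigned to genes by the array's platform annotation. Gene symbols were taken from RefSeq where the gene identifier matched (41043 of 41097 probe sets with 1 symbol). No depth exists for arrays, and 3 per group limits the precision.

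From these values, limma 3.58.1 (R 4.3.3; lmFit, eBayes, Benjamini-Hochberg) compared bevacizumab with control over all 6 arrays, once per gene and once per probe set; the procedure was checked on simulated data. A group with no array at 4 or above entered a fold as 4, which makes that fold a lower bound. A tested probe set with such a group met the filter only through the other group, so the filter fixed the direction of its difference. Differences between genes or probe sets on the same array were tested by exact permutation. The text names all genes of the family, up to 4 tested genes with the smallest p from each list, and the 5 nearest profiles of each gene of the family past the threshold; other named genes are marked as such. The family and the lists were chosen with earlier results of these data known. Alternatives covered the filter (none, or 6), a floor at 4, averaged probe sets, centring, quantile normalization, a variance trend with robust estimation, the replicate number as a block, the ACTB covariate and leaving out each array.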

Additional observations from a re-analysis of the deposited data

How the results depend on the processing

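With the ACTB covariate, genes of the family past the threshold went from 3 to 0, their probe sets from 10 to 1, VEGFA from 1.40 to 1.25 (no longer past the threshold), and genes of the 6 lists from 18 higher and 4 lower to 0 and 0. With probe sets averaged VEGFA was 1.99 and NRP2 1.049. Without the filter on dim genes 4 probe sets of the family and 7 higher and 1 lower list genes passed. Leaving out each array in turn gave 3 to 4 genes and 5 to 11 probe sets of the family, and 7 to 22 higher and 1 to 6 lower list genes. Replicate numbers are shared by the groups, but over all tested genes same-numbered arrays did not deviate together (r = -0.048, -0.012 and -0.053). An r over all genes cannot show whether a pairing touched part of them. With the replicate block 3 genes of the family and 11 higher list genes passed, and VEGFA stayed at 1.40. That block took the call from THBS2, MMP2, CBLB, SHB, PRKCA, RCAN1, ATF4, ZFP36L1 and HNRNPA2B1 (limma adjusted p 0.0559 to 0.139). Signs turned for PGF with its probe sets averaged (-0.46), for 1561365_at with the ACTB covariate (-0.016) and without control 2 (-0.077; up to 0.43 without other arrays), for 210510_s_at without control 2 (-0.064; up to 0.18) and for 210615_at without bevacizumab 3 (0.17; down to -0.60); the cause was not tested. Over all genes 1950 passed, against 598 without the filter, 904 with the block, 24 with the ACTB covariate, and 578, 558, 897 and 1075 without control 1, 2 or 3 or bevacizumab 2. The alternatives for list genes and for differences between genes were chosen after seeing the data. Dim signal limits KDR, FLT4 and most FLT1 probe sets.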
